A study of Sus scrofa with 6 samples.

Results

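The miRNAs ssc-miR-451, ssc-miR-144, ssc-miR-486 and ssc-miR-185, which mark red blood cells, were followed in small extracellular vesicles (s-EVs) of porcine follicular fluid. They were taken by name as a check on blood carried over into the fluid, and all 4 were among the 453 miRNAs listed. The s-EVs came from the follicles of prepubertal gilts (Landrace × Large White, ovaries from a slaughterhouse), which the labels give as 2 to 6 mm in diameter. HQ libraries held s-EVs from follicles whose oocyte, in its cumulus complex, was left clear by lissamine green B, which stains cells whose membrane is damaged, and LQ libraries those from follicles whose oocyte took up the stain. There were 3 libraries per group, each from fluid pooled over follicles, with the cells pelleted and the fluid filtered before the vesicles were isolated. The replicates are described as biological, and the sources used here do not give the number of follicles or gilts behind a pool. No library of blood, plasma or red cells was part of the comparison, so the level that a known amount of blood would give in such libraries was not measured.

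A miRNA is cut from a hairpin precursor to a strand of about the same length in all miRNAs, and its seed, bases 2 to 8, pairs with the messenger RNAs it represses. miR-451 and miR-144 are made from one primary transcript that the transcription factor GATA1 switches on in red cell precursors, and miR-451 is the leading miRNA of mature red cells in mammals. It is unusual in that its short hairpin is cut by AGO2 instead of Dicer. miR-486 lies in the gene ANK1, which encodes a protein of the red cell skeleton, and is also made in skeletal muscle. miR-185 is abundant in red cells but is made in many other tissues. In human plasma, the ratio of miR-451 to miR-23a is a common measure of haemolysis, because miR-451 leaks from broken red cells while miR-23a changes little. The granulosa layer around the oocyte has no blood vessels of its own, whereas the theca outside it is vascular and is pierced by the aspirating needle.

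The mature sequences are shown because seed and base composition separate the members (RNA letters, 5′ to 3′, seed in capitals, read from the Sscrofa11.1 RefSeq annotation and genome).
miR-451: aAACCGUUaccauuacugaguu
miR-144: uACAGUAUagaugauguac
miR-486: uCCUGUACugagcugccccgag
miR-185: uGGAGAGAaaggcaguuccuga
The 4 seeds differed from each other, and none was shared with another of the 367 listed miRNAs of known sequence. Over bases 2 to 7 only, miR-144 had the same letters as miR-101 and miR-199b-3p. GC content was 31.6% in miR-144, 36.4% in miR-451, 50.0% in miR-185 and 63.6% in miR-486. Each mature sequence had 1 exact copy in the assembly, counting both strands, so no second locus could give the same exact reads.

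The annotated hairpins of miR-451 and miR-486 are shown because they differ in the longest perfect complement of the mature strand that they hold (mature part in capitals).
miR-451 hairpin: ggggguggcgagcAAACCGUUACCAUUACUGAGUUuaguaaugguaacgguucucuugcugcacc
miR-486 hairpin: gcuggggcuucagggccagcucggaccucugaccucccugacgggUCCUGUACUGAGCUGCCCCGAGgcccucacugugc
In miR-451, a run of 16 bases that perfectly complements the mature strand started at the 2nd base after its end. In the annotated hairpin of miR-486, the longest perfect complement was 6 bases. A longer one, of 11 bases, started at base 25 past the mature strand, outside the annotated hairpin, which ends 13 bases past it. The annotated window of miR-486 may thus be displaced, which was not tested. Pairing with mismatches was not measured for either hairpin. miR-451 lies at chr12:45088838-45088859 and miR-144 at chr12:45088968-45088986, both on the minus strand, with 85 bases between their hairpins. Both hairpins are within the span of the gene ERAL1, on the opposite strand and outside its exons. miR-486 lies at chr17:10758868-10758889, on the minus strand, outside the exons of ANK1, which is on the same strand. miR-185 lies at chr14:51449913-51449934, on the plus strand, inside TANGO2 and outside its exons.

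The deposited values are TMM-adjusted CPM: reads of a miRNA scaled to the miRNA reads of the library, whose size was adjusted by the trimmed mean of M-values. Every value was a whole multiple of one step per library, within 6.66e-05 of a step. All read numbers given here are implied ones, with a step taken as 1 read. Libraries held 898530 reads in LQ replicate 1, the fewest, to 3159116 in LQ replicate 3. The lowest sum of CPM was in HQ replicate 2, at 915120, and each LQ library summed to more than each HQ library. Of 5 tested gonad and granulosa miRNAs, miR-202-5p was the most abundant (means of 71448 CPM for HQ, 70526 CPM for LQ, log2 fold change -0.07, adjusted p = 0.877 from limma). The other arm, miR-202-3p, was higher in HQ (0.83, adjusted p = 0.0287), and miR-21-5p was higher in each LQ library without passing (-0.38, adjusted p = 0.151). miR-202-3p did not pass when HQ replicate 2, HQ replicate 3, LQ replicate 2 or LQ replicate 3 was left out. Nor did it pass with GC correction alone or without the variance trend. In every library miR-185 was the highest of the 4 members, followed by miR-486, miR-451 and miR-144, on the CPM scale. Together they made up 0.233% of the summed CPM in LQ replicate 1 at the least and 0.440% in HQ replicate 2 at the most, and miR-185 alone made up 94.7% to 97.3% of that.

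**Figure D1:**
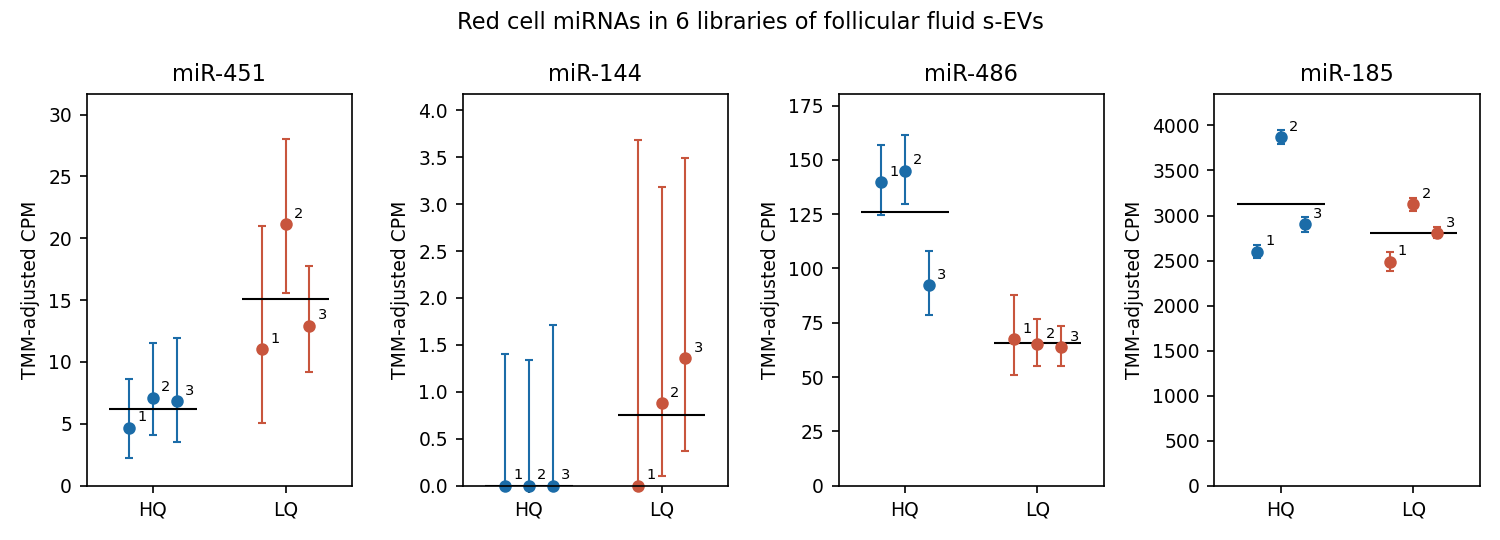
TMM-adjusted CPM (vertical axes, linear, a scale for each miRNA) of the 4 members in each library, by group, with the replicate number beside each point. Bars are exact 95% Poisson intervals of the implied reads, which cover counting error only (up to 3 reads at a count of 0), and the black line is the group mean. miR-451 was above 11 CPM in each LQ library and below 7.2 CPM in each HQ library, miR-486 was higher in each HQ library, and the groups overlapped for miR-185.

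miR-451 was present at a low level and was higher in LQ s-EVs. HQ replicates 1 to 3 had 4.69, 7.12 and 6.85 CPM, and the LQ libraries, in the same order, had 11.05, 21.2 and 12.9 CPM. No HQ library reached the lowest LQ library, and LQ replicate 2 stood highest. The HQ mean was 6.22 ± 1.33 CPM (SD, n = 3), and the LQ mean was 15.1 ± 5.38 CPM (SD, n = 3). The log2 fold change of HQ against LQ was -1.18 (standard error 0.409, 95% interval -2.03 to -0.32, adjusted p = 0.0403 from limma), which is 2.26-fold on the log2(CPM + 0.5) scale. It met the thresholds the study set for differential expression, which ask for a fold of 2, for an adjusted p under 0.05 and, in the higher group, for a mean over 5 CPM. So did 12.6% of the 309 tested miRNAs, 7.44% in the LQ direction and 5.18% in the HQ direction.

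The implied read numbers behind miR-451 were small. They were 10, 16 and 12 in the HQ libraries and 9, 48 and 38 in the LQ libraries. The 9 reads of LQ replicate 1 allow 5.05 to 20.98 CPM (exact 95% Poisson interval, counting error only), a range that holds the values of HQ replicates 2 and 3. Leaving out any 1 library other than LQ replicate 1 ended the call, with adjusted p from 0.0596 without HQ replicate 3 to 0.214 without LQ replicate 2 (limma). Without LQ replicate 1, the library with the fewest reads, the log2 fold change was -1.37 and the adjusted p was 0.0170.

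miR-144, the partner of miR-451 on the primary transcript and a repressor of the oxidative stress regulator NRF2, was close to the detection limit. It was listed at 0 in HQ replicates 1 to 3 and in LQ replicate 1, at 0.882 CPM in LQ replicate 2 and at 1.36 CPM in LQ replicate 3. These 2 libraries were the deepest, and their values stood for 2 and 4 reads. A count of 0 allows up to 3 reads, which is 1.33 to 1.71 CPM in the HQ libraries and 3.68 CPM in LQ replicate 1. A difference between the groups was therefore not detectable at this depth, and miR-144 did not reach the mean of 1 CPM that the test required. In the same LQ replicates 2 and 3, miR-451 had 48 and 38 reads, so the 2 miRNAs of the cluster were far from equal in number. Without a filter on low values its adjusted p was 0.216 (limma).

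miR-486 moved the other way and was higher in HQ s-EVs. HQ replicates 1 to 3 had 139.9, 145.0 and 92.5 CPM, against 67.6, 65.3 and 63.7 CPM for the LQ libraries in the same order. The LQ libraries were close together, and all lay below HQ replicate 3, the lowest of its group. The HQ mean was 126 ± 29.0 CPM (SD, n = 3) and the LQ mean 65.5 ± 1.94 CPM (SD, n = 3), from 162 to 326 reads per HQ library and 55 to 187 per LQ library. The log2 fold change was 0.91 (standard error 0.263, 95% interval 0.36 to 1.46, adjusted p = 0.0158 from limma), below the fold threshold of the study. With libraries rescaled to equal sums (1.104) or without HQ replicate 3 (1.11), miR-486 did reach that fold. An adjusted p under 0.05 was reached by 26.5% of the tested miRNAs, 11.7% in the HQ direction and 14.9% in the LQ direction. For miR-486 the test was no longer passed without HQ replicate 1, without HQ replicate 2 and without LQ replicate 2 (adjusted p of 0.0719, 0.0885 and 0.0614).

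miR-185, the most abundant member, showed no difference past the test. The HQ libraries held 2598, 3871 and 2901 CPM by replicate, the LQ libraries 2488, 3126 and 2806 CPM. The groups overlapped, and HQ replicate 2 stood above the rest. Means were 3124 ± 665 CPM (SD, n = 3) in HQ, rank 36 of the 453 miRNAs, and 2807 ± 319 CPM (SD, n = 3) in LQ, rank 41. The log2 fold change was 0.14 (standard error 0.218, adjusted p = 0.691 from limma), with a 95% interval of -0.32 to 0.60, and its sign turned without HQ replicate 2 (-0.03). With 2026 reads or more in each library, counting error was small against the spread between replicates.

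Of the 3 members that could be tested, 1 was thus higher in LQ, 1 higher in HQ and 1 did not pass, against 26.5% of all tested miRNAs passing in either direction. The values of miR-451 and of miR-486 did not overlap between the groups, as was the case for 43.7% of the tested miRNAs (22.7% higher in LQ, 21% higher in HQ). In these pooled fluids, a change in the number of vesicles that carry a miRNA and a change in its amount per vesicle cannot be told apart.

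Ratios within a library do not depend on how the libraries were scaled, and 7 of them were compared between the groups (two-sided exact permutation tests on log2 ratios with 0.5 CPM added, 3 against 3, smallest possible p = 0.1, adjusted over the 7 ratios). They were not corrected for GC content, which differs between the members and is 47.6% in miR-23a. The ratio of miR-451 to miR-23a was higher in each LQ library, without passing after adjustment. No level of haemolysis can be read from it, since it is a measure for human plasma and no blood or plasma library was included. miR-451 was 0.229%, 0.296% and 0.323% of the CPM of miR-23a in the HQ libraries, in order of replicate, while the LQ libraries gave 0.723%, 1.15% and 0.682%. On the log2 scale the ratio was -8.37 ± 0.232 (SD, n = 3) in HQ and -6.87 ± 0.398 (SD, n = 3) in LQ, a difference of -1.50 for HQ minus LQ (exact p = 0.1, adjusted p = 0.175), and each LQ library was above each HQ library. For miR-23a itself, means were 2189 ± 189 CPM for HQ and 1757 ± 200 CPM for LQ (SD, n = 3). It too did not overlap, though its log2 fold change of 0.32 did not pass (adjusted p = 0.264 from limma). Part of the difference in the ratio thus came from its denominator. Its paralogue miR-23b was higher in HQ (0.87, adjusted p = 0.0148 from limma), a call lost without HQ replicate 1, HQ replicate 2, LQ replicate 2 or LQ replicate 3.

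The proportions of the members to each other varied between these libraries, though no ratio passed after adjustment. miR-451 was 3.36%, 4.91% and 7.41% of miR-486 in the HQ libraries, in order of replicate, and 16.4%, 32.4% and 20.3% in those of LQ, the widest gap of the 7 ratios. The log2 difference of this ratio was -2.09 for HQ minus LQ (exact p = 0.1, adjusted p = 0.175), and no library of one group reached the other. This restates the opposite directions of miR-451 and miR-486 and is not a separate result. Against miR-185, miR-451 was lower in HQ by 1.32 on the log2 scale and miR-486 was higher in HQ by 0.77, again without overlap (exact p = 0.1 and adjusted p = 0.175 for each). The other ratios overlapped. miR-486 to miR-23a had a log2 difference of 0.59 (exact p = 0.2), and HQ replicate 3, at -4.51, lay just below LQ replicate 1, at -4.49. miR-185 to miR-23a had a log2 difference of -0.18 (exact p = 0.2), with an adjusted p of 0.233 for both.

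**Figure D2:**
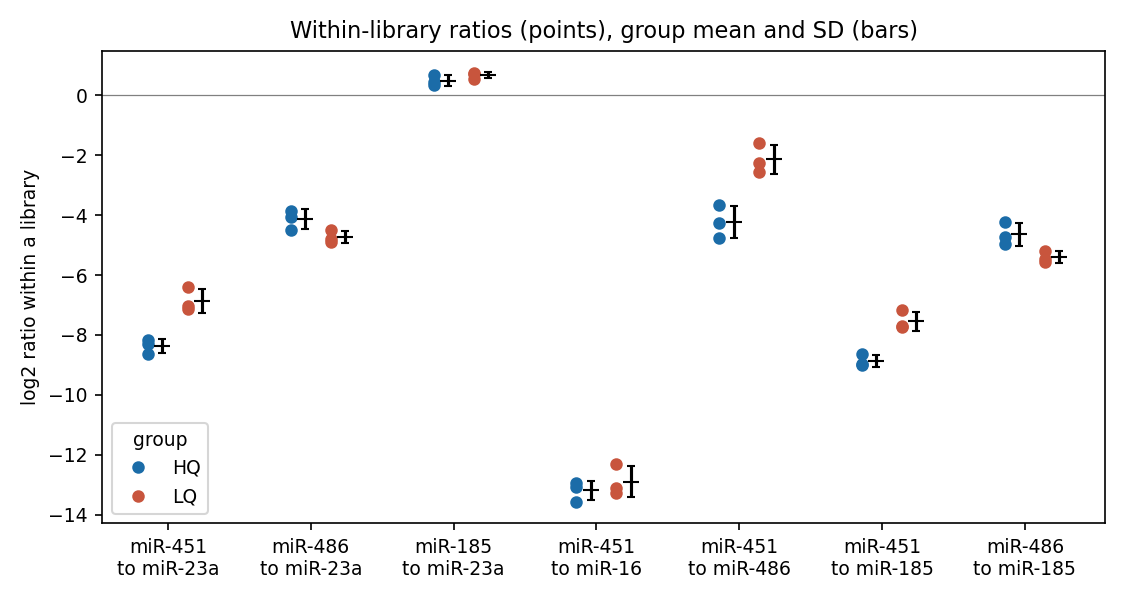
Log2 ratio of 2 miRNAs within a library (vertical axis, CPM plus 0.5) for the 7 ratios compared. Points are libraries, blue for HQ and red for LQ, and the bars beside them are the group mean and SD. The groups are apart for miR-451 to miR-23a, miR-486 and miR-185 and for miR-486 to miR-185, and mixed for the other 3 ratios.

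miR-16, which is abundant in red cells and in most other tissues, was the most abundant of the other red cell miRNAs. By replicate, HQ libraries had 63217, 65586 and 58105 CPM and LQ libraries 102384, 109948 and 134400 CPM. Its log2 fold change was -0.88 with an adjusted p of 0.00207 (limma). Its rise in LQ was in the direction of miR-451, and the ratio of the 2 overlapped between the groups. The log2 ratio of miR-451 to miR-16 was -13.2 ± 0.3297 (SD, n = 3) in HQ and -12.9 ± 0.522 (SD, n = 3) in LQ, a difference of -0.29 (exact p = 0.6).

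A wider list of red cell miRNAs, without the 4 members, was drawn up from background knowledge, but with earlier results of these data known. From it, 17 miRNAs of 14 of its 17 names were listed and tested. Of these, 4 were higher in LQ (miR-16, miR-20a-5p, miR-15a and miR-17-3p), none was higher in HQ and 13 did not pass. That is 23.5% of the list, all in the LQ direction, beside 26.5% of all tested miRNAs in either direction (14.9% higher in LQ, 11.7% higher in HQ). These 4 are not 4 separate loci. miR-15a lies close to a copy of miR-16 on chromosome 11, and miR-17-3p lies close to miR-20a-5p on the same chromosome. The median log2 fold change was -0.28, beside 0.08 over all tested miRNAs. miR-20a-5p, encoded beside miR-17, averaged 387 ± 148 CPM for HQ and 901 ± 235 CPM for LQ (SD, n = 3), and its log2 fold change was -1.26 with an adjusted p of 0.00431 (limma). For miR-15a the log2 fold change was -0.72 (adjusted p = 0.0434), for miR-17-3p -1.41 (adjusted p = 0.0485), and their values overlapped between the groups. miR-15a no longer passed once HQ replicate 1, HQ replicate 2, LQ replicate 2 or LQ replicate 3 was left out, nor did miR-17-3p without HQ replicate 1, HQ replicate 2, LQ replicate 1 or LQ replicate 2. miR-92a, prominent in red cells, was at 0.29 (adjusted p = 0.303), and miR-182 and miR-183, abundant in reticulocytes, were at -0.21 and 0.21 (adjusted p = 0.640 and 0.659). miR-363, of a related cluster, was at -1.13 (adjusted p = 0.0808) and higher in each LQ library. Over the list, 10 of 17 log2 fold changes were negative, beside 46.3% of all tested miRNAs. With libraries rescaled to equal sums, which moved the median of all tested miRNAs by 0.18, 2 were higher in LQ and 1 in HQ. Of 14 that could be corrected for GC content 2 were higher in LQ, without the variance trend 1 was, and with array weights 6 were higher in LQ and 1 in HQ. Over all alternatives, 1 to 6 were higher in LQ and 0 to 1 in HQ.

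**Figure D3:**
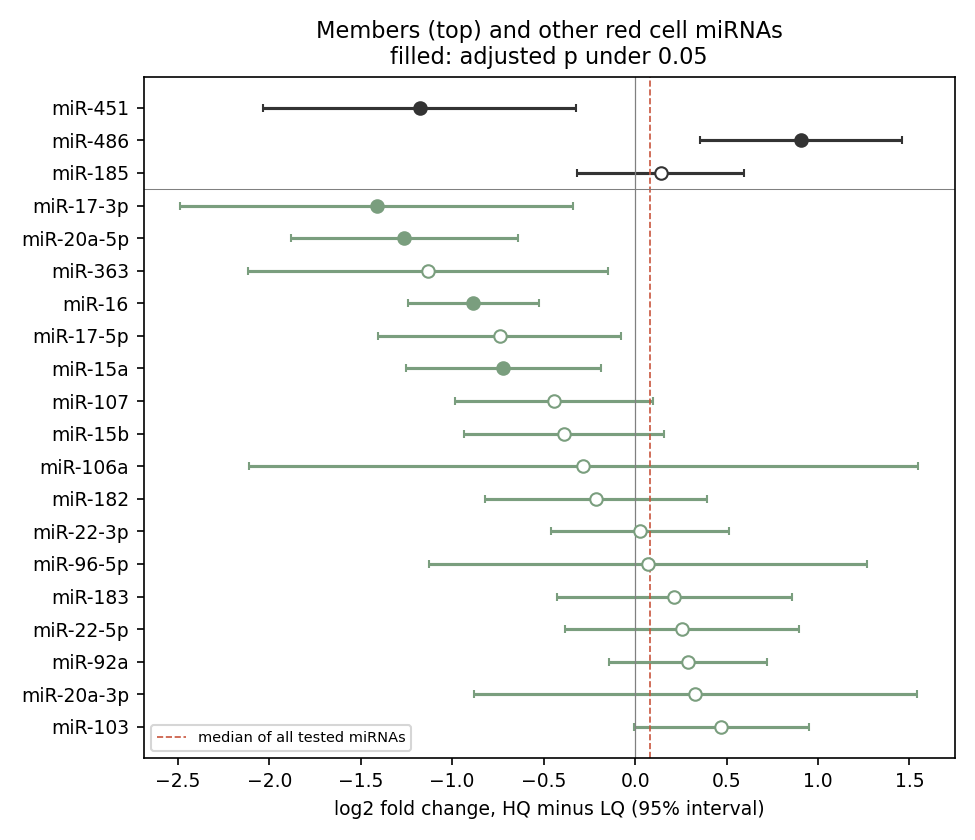
Log2 fold change of HQ against LQ with its 95% interval (horizontal axis) for the 3 tested members, above the line, and the 17 other red cell miRNAs. Filled points had an adjusted p under 0.05 and the dashed line is the median of all 309 tested miRNAs. miR-451 lies at -1.18 among the miRNAs higher in LQ, miR-486 at 0.91 on the other side.

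miRNAs known to fall while red cells form were examined as well. Of 6 tested (miR-24-3p, miR-221-3p, miR-222, miR-223, miR-150 and miR-155-5p), none passed, beside 26.5% of all tested miRNAs, and the median log2 fold change was 0.22. With equal sums, with GC correction, and with GC correction and the replicate block, 1 was higher in HQ. miR-221-3p, which represses the stem cell factor receptor KIT, was at 0.12 (adjusted p = 0.771), and miR-24-3p, the most abundant, was at 0.40 (adjusted p = 0.114).

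White blood cell miRNAs were examined beside the red cell miRNAs, since blood would bring both. Of 10 listed miRNAs of this kind, 2 were at 0 in all libraries and 8 were tested. miR-142-5p was higher in LQ, miR-342 was higher in HQ and 6 did not pass, so that 25% passed, beside 26.5% of all tested miRNAs. miR-142-5p, from a hairpin restricted to blood cells, had 36.6, 28.0 and 31.4 CPM in the HQ libraries and 52.8, 93.1 and 115 CPM in the LQ libraries, by replicate, and each LQ library was above each HQ library. The log2 fold change was -1.36 with an adjusted p of 0.00365 (limma), and -0.81 with an adjusted p of 0.0592 after GC correction. The other arm of the same hairpin, miR-142-3p, was at -0.15 (adjusted p = 0.759) and overlapped. miR-223, of granulocytes and platelets, averaged 62.1 ± 6.06 CPM for HQ and 84.0 ± 24.8 CPM for LQ (SD, n = 3; log2 fold change -0.39, adjusted p = 0.302), and miR-150, of lymphocytes, was at 0.09 (adjusted p = 0.889). miR-342 was at 0.65 (adjusted p = 0.0287). It did not pass when HQ replicate 1, HQ replicate 2, LQ replicate 2 or LQ replicate 3 was left out. The summed level of the list, most of it miR-146a-5p, ran from 22554 to 30756 CPM in HQ and from 26502 to 29943 CPM in LQ. Their part in the difference of miR-451 was not tested.

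Some markers of other tissues differed between the groups, beside 14.9% of all tested miRNAs higher in LQ and 11.7% higher in HQ. Of 6 tested muscle miRNAs, 3 were higher in LQ (miR-133a-3p, then miR-206, then miR-133b by LQ level) and 3 did not pass, among them the most abundant, miR-499-5p (-0.73, adjusted p = 0.0526), and the summed level of 7 listed ran from 133 to 179 CPM in HQ and from 267 to 377 CPM in LQ, while miR-486, which skeletal muscle also makes, was lower in LQ. Endothelial miR-126-5p was higher in LQ (-1.13, adjusted p = 0.00222) and its partner arm miR-126-3p was at -0.18 (adjusted p = 0.640). The summed level of both arms ran from 874 to 1062 CPM in HQ and from 1619 to 2149 CPM in LQ. Of 4 tested liver miRNAs, only miR-194a-5p passed, higher in LQ (-0.83, adjusted p = 0.0493) and miR-122-5p was at -0.58 (adjusted p = 0.103), and the most abundant, miR-192, was at -0.21 (adjusted p = 0.463). miR-194a-5p did not pass without any 1 library other than LQ replicate 1. The summed level of the liver list ran from 2691 to 3017 CPM in HQ and from 3299 to 3626 CPM in LQ. The part of these tissues in the values of the members was not tested.

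The 3 tested members lay in the order of their GC content, miR-451 lowest and miR-486 highest in both GC content and log2 fold change. The 65 other tested miRNAs within 5 percentage points of miR-451 had a median log2 fold change of -0.39. Of these, 45 were negative (69.2%, beside 46.3% of all tested miRNAs). Near miR-486, the median of 46 miRNAs was 0.52, with 38 positive and 17.4% negative. Near miR-185, the median of 97 miRNAs was 0.14, the same as the value of miR-185 itself. Near miR-144, which was not tested, the median of 40 miRNAs was -0.60. After a line on GC content was taken out of each library, the log2 fold change was -0.74 for miR-451 (adjusted p = 0.205 from limma), 0.35 for miR-486 (adjusted p = 0.320) and 0.08 for miR-185 (adjusted p = 0.853), so that neither miR-451 nor miR-486 passed. This correction takes out a group difference that runs with GC content whatever its source.

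**Figure D4:**
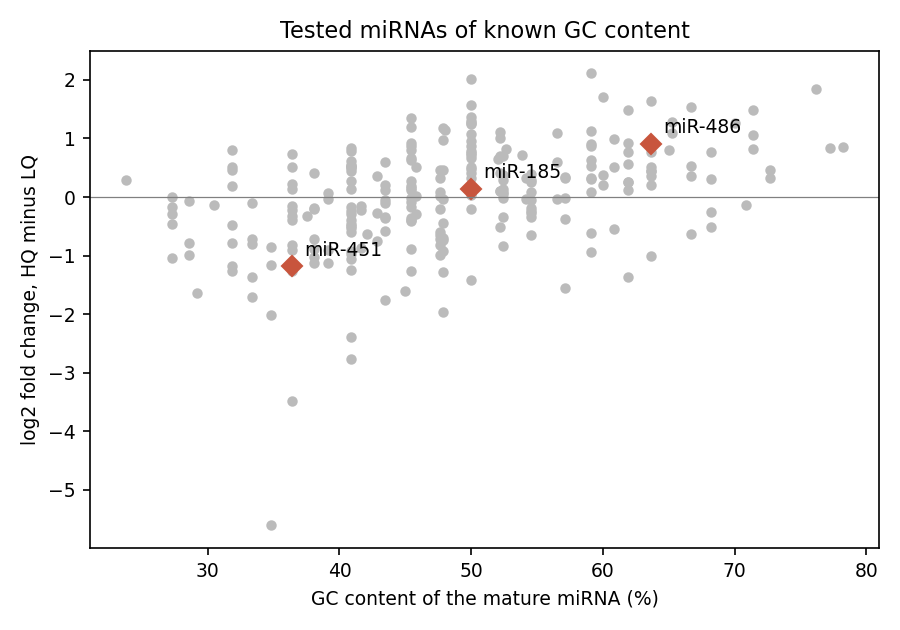
Log2 fold change of HQ against LQ (vertical axis) against the GC content of the mature miRNA in percent (horizontal axis) for the 256 tested miRNAs of known sequence, with the 3 tested members as red diamonds. miR-451, at 36.4% GC, lies among miRNAs that are mostly below 0, and miR-486, at 63.6%, among miRNAs mostly above it.

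Of the miRNAs whose profiles over the 6 libraries were most like those of the members, miR-20a-5p was on the red cell list and miR-221-3p on the list of those that fall. Likeness was the mean absolute difference between log2(CPM + 0.5) values, each miRNA centred on its own mean. For miR-451 they were miR-30e-5p (0.187), miR-148b-3p (0.222) and miR-20a-5p (0.232), against a median of 0.749 over all other tested miRNAs. For miR-486 they were miR-149 (0.0709), miR-99b (0.0958) and miR-2366 (0.0968), against a median of 0.553. For miR-185 they were miR-221-3p (0.0631), miR-9851-3p (0.102) and miR-3613 (0.1098), against a median of 0.411. All 3 nearest to miR-451 were higher in LQ (log2 fold changes of -1.26 to -0.87). All 3 nearest to miR-486 were higher in HQ (0.896 to 0.996). Likeness was taken over the libraries of both groups, so these shared directions follow from the choice and are not a separate result. miR-101, which has bases 2 to 7 in common with miR-144, averaged 2323 ± 830 CPM for HQ and 7293 ± 154 CPM for LQ (SD, n = 3), far above miR-144.

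**Figure D5:**
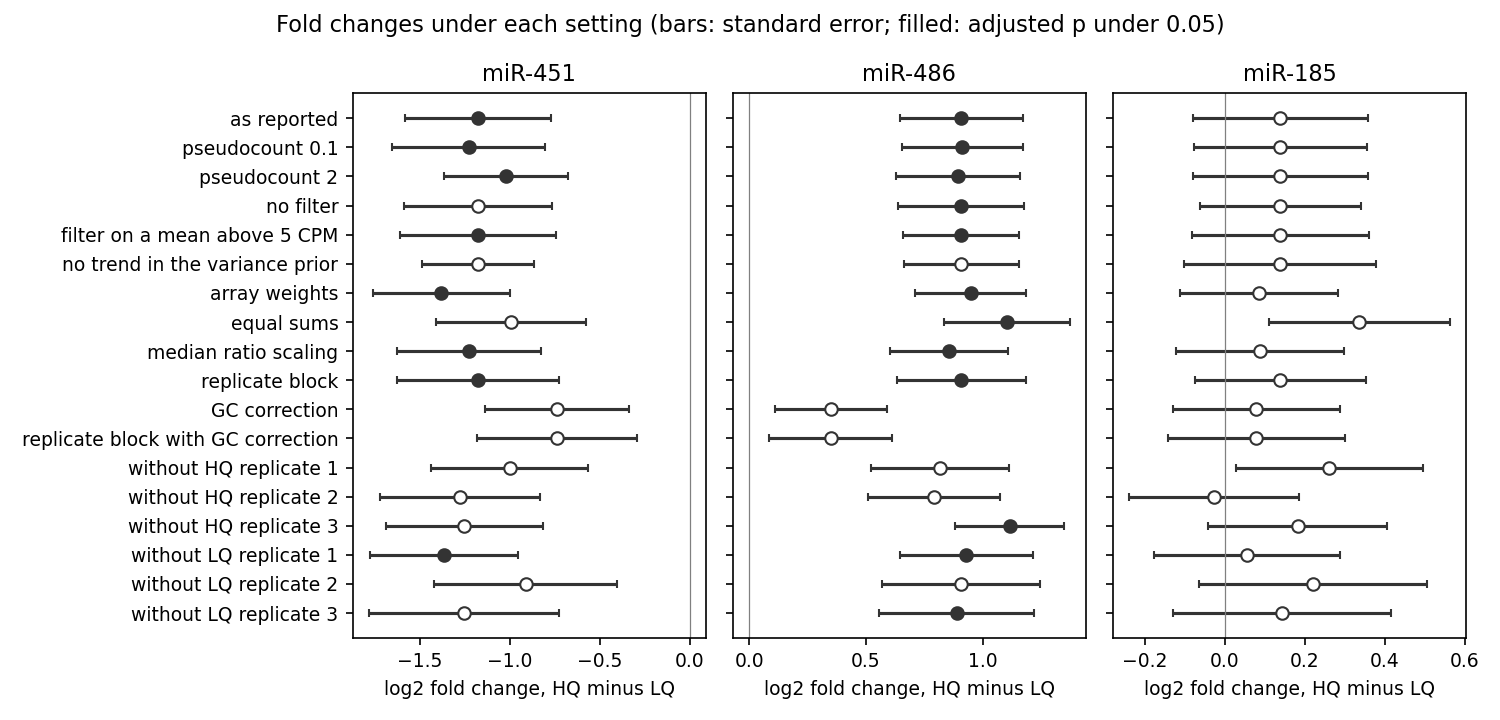
Log2 fold change of HQ against LQ with its standard error (horizontal axes, a scale for each miRNA) for miR-451, miR-486 and miR-185 as reported and under each of 17 other settings. Filled points had an adjusted p under 0.05. miR-451 stays between -1.38 and -0.74, miR-486 between 0.35 and 1.11, and miR-185 lies near 0.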

How the data were processed

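Small RNA of s-EVs was sequenced in 3 HQ and 3 LQ libraries. In CLC Genomics Workbench, the authors mapped trimmed reads to Sscrofa11.1, with miRBase as annotation. The submitters' processing notes also name bcl2fastq, Bowtie2 2.2.2 and DESeq2. The authors deposited TMM-adjusted CPM, treated here as a signal. Use of unique molecular identifiers is not given. No count model was run, since too few low values were there to accept the steps as reads.

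The 309 miRNAs whose mean exceeded 1 CPM in at least 1 group were tested two-sided on log2(CPM + 0.5) by limma 3.58.1 (R 4.3.3), using a variance trend and Benjamini-Hochberg adjustment. Ratios were tested by exact permutation in SciPy 1.17.1. On simulated data for this comparison (305 miRNAs), the adjusted p threshold was passed by 20 of 20 true 2-fold and 20 of 20 true 4-fold changes. It was also passed by 3 of 245 unchanged miRNAs. The full call was met by 11, 20 and 0 of these, in the same order. Changes were simulated only in miRNAs with a mean above 20 CPM, with the same dispersion set for all. miR-451, with means of 6.22 CPM for HQ and 15.1 CPM for LQ, lay below that range. These counts therefore do not say how often a change in miR-451 would pass. The miRNAs named were the members, the ratio partners, the 3 nearest profiles per member, and of each list the 4 most abundant that passed and the most abundant. Further white cell and falling list members, miR-92a, miR-182, miR-183, miR-363, miR-126-3p, miR-122-5p, miR-21-5p, miR-101 and miR-199b-3p were named after their values were seen. The members and lists were chosen with earlier results of these data known. Sequences came from RefSeq, by name for 347 miRNAs and by name and hairpin arm for 20. Alternatives covered pseudocount, filter, variance prior, array weights, scaling, replicate block, GC correction and leaving out each library.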

Additional observations from a re-analysis of the deposited data

How the results depend on the processing

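Directions held for miR-451 and miR-486 in all 17 alternatives, but their calls did not. miR-451 no longer passed without a filter on low values (-1.18, adjusted p = 0.0585 from limma), without a trend in the variance prior (-1.18, adjusted p = 0.0606), with equal sums (-0.99, adjusted p = 0.0746), and with GC correction alone or together with the replicate block (-0.74, adjusted p = 0.205 and 0.222). miR-486 was lost without the trend (0.91, adjusted p = 0.0620), and with GC correction alone or with the block (0.35, adjusted p = 0.320 and 0.364). With 1 library left out, the log2 fold change ran from -1.37 to -0.91 for miR-451, from 0.79 to 1.11 for miR-486 and from -0.026 to 0.26 for miR-185, negative without HQ replicate 2. The log2 difference of miR-451 to miR-16 ran from -0.49 to 0.0031, turning its sign without LQ replicate 2, and the other 6 ratios kept their sign. Of all miRNAs, 39 were called and 82 had an adjusted p under 0.05. These were 24 and 29 without the trend, 24 called with GC correction, and with 1 library left out 22 to 53 called and 29 to 109 past the adjusted p, both lowest without HQ replicate 2. Leaving out HQ replicate 1 gave 48 past the adjusted p, and leaving out LQ replicate 2 gave 46. With equal sums 31 were called higher in HQ and 12 in LQ, against 16 and 23. Apart from the alternative's own construction, the cause was not tested.

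Deviations of same-numbered libraries from their group means had r of -0.036 to -0.0052 across the 309 miRNAs, so no pairing by number showed in the values. This cannot tell whether same-numbered libraries were collected or processed together, which the sources used here do not give. With the replicate block, 44 were called and 97 passed, and it changed the call of none of the members (adjusted p = 0.0359 for miR-451). The comparison with miRNAs of like GC content was chosen after seeing the data. Depth limits miR-451, at 9 to 48 reads per library, and miR-144, at 0 to 4.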
